A study of Mus musculus with 8 samples.

Results

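The genes described here are 5 cadherins and 4 catenins, the calcium-dependent adhesion receptors of cell junctions and the proteins that join their tails to the cytoskeleton. They were measured in canals microdissected from mouse hearts, the atrioventricular canal being the part where the valve cushions form. They were chosen by symbol, as every probe set annotated to Cdh1, Cdh2, Cdh5, Cdh11, Cdh13, Ctnna1, Ctnna3, Ctnnd1 or Jup and to no second gene. This gave 21 of the 45101 probe sets of the array, and all 9 genes had at least 1. The study compared 2 groups of 4 pools, each pool made of 10 microdissected canals, on a mixed C57BL6/129 background. Control pools were Gata4 flox/flox, with both copies of Gata4 floxed. Mutant pools were Gata4 flox/flox with the T2Cre transgene as well, a Cre recombinase under the promoter of Tie2 (Tek), which is active in endothelium, so that endothelial cells and the mesenchyme they give rise to lose Gata4. Floxed alleles are thus shared by both groups, and the labels do not say that the controls carried Cre. The myocardium and the epicardium were not targeted. The labels state no age for the embryos.

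Cadherins bind their own kind on the neighbouring cell, and each cell type carries its own. VE-cadherin (Cdh5) joins endothelial cells, N-cadherin (Cdh2) joins cardiomyocytes and is also found in mesenchyme, E-cadherin (Cdh1) joins epithelia, cadherin 11 (Cdh11) is a cadherin of mesenchyme, and T-cadherin (Cdh13) is held in the membrane by a lipid anchor and has no tail for catenins. Inside the cell, p120 catenin (Ctnnd1) holds cadherins at the membrane, beta-catenin or plakoglobin (Jup) binds the tail, and alpha-catenin (Ctnna1, with Ctnna3 in heart muscle) joins the complex to actin. When endocardial cells turn into cushion mesenchyme they give up their endothelial junctions, so cadherins are commonly followed in this transition.

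Controls 2 and 3 had a raised background: their threshold for calling a probe set above background, the signal that 90 percent of 27 B. subtilis spike controls stay under, lay at 316 and 269.5 signal units, against 51.1 to 97.5 on controls 1 and 4 and 21.4 to 65.4 on the mutants. They had the lowest weights in the fit (0.302 and 0.350, against 0.867 to 2.80 on the other arrays). The defining markers of the labelled tissue were measured well: 6 of 6 cardiomyocyte and 6 of 6 cushion mesenchyme markers, and 4 of 7 endothelial ones, were above background on all 8 arrays. Gata4 itself, on its brighter probe set, stood at 11.15, 11.07, 11.42 and 11.38 across controls 1 to 4 and at 11.10, 11.28, 11.18 and 10.93 across mutants 1 to 4. The dimmer one was above background on 2 control and 4 mutant arrays. Neither checks the deletion, because untargeted myocardium expresses Gata4 and the sources used here do not place the probes relative to the floxed exons.

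The comparison of mutant with control pools asks which adhesion genes of the canal differ when endothelium and its descendants lack Gata4. None of the 15 member probe sets tested passed the threshold. All values below are log2(signal + 16) after quantile normalization, and changes are mutant minus control from a limma fit over 27022 probe sets. Its p values were adjusted by Benjamini and Hochberg over all of these, with a threshold of 0.05. Of the 21 member probe sets, 15 for 8 genes were tested and 6 were left out as too dim. In all, 12 probe sets passed (7 higher and 5 lower in the mutants), which is 0.0444% of those tested, and 0 of the 15 did, with a smallest adjusted p of 0.240. At an unadjusted p under 0.05 there were 2 of 15, against 12.6% of all probe sets, and control and mutant arrays were without overlap for 2 of 15, against 7.63%. Positive changes numbered 10 of 15, against 53.8% of all, and the median change was 0.09, against 0.03. These shares are near those of the whole table, and probe sets of 1 gene are not independent. The 2 probe sets with an unadjusted p under 0.05, also those without overlap, were the dimmer one of Cdh2 and the dimmest one of Ctnnd1.

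**Figure D1:**
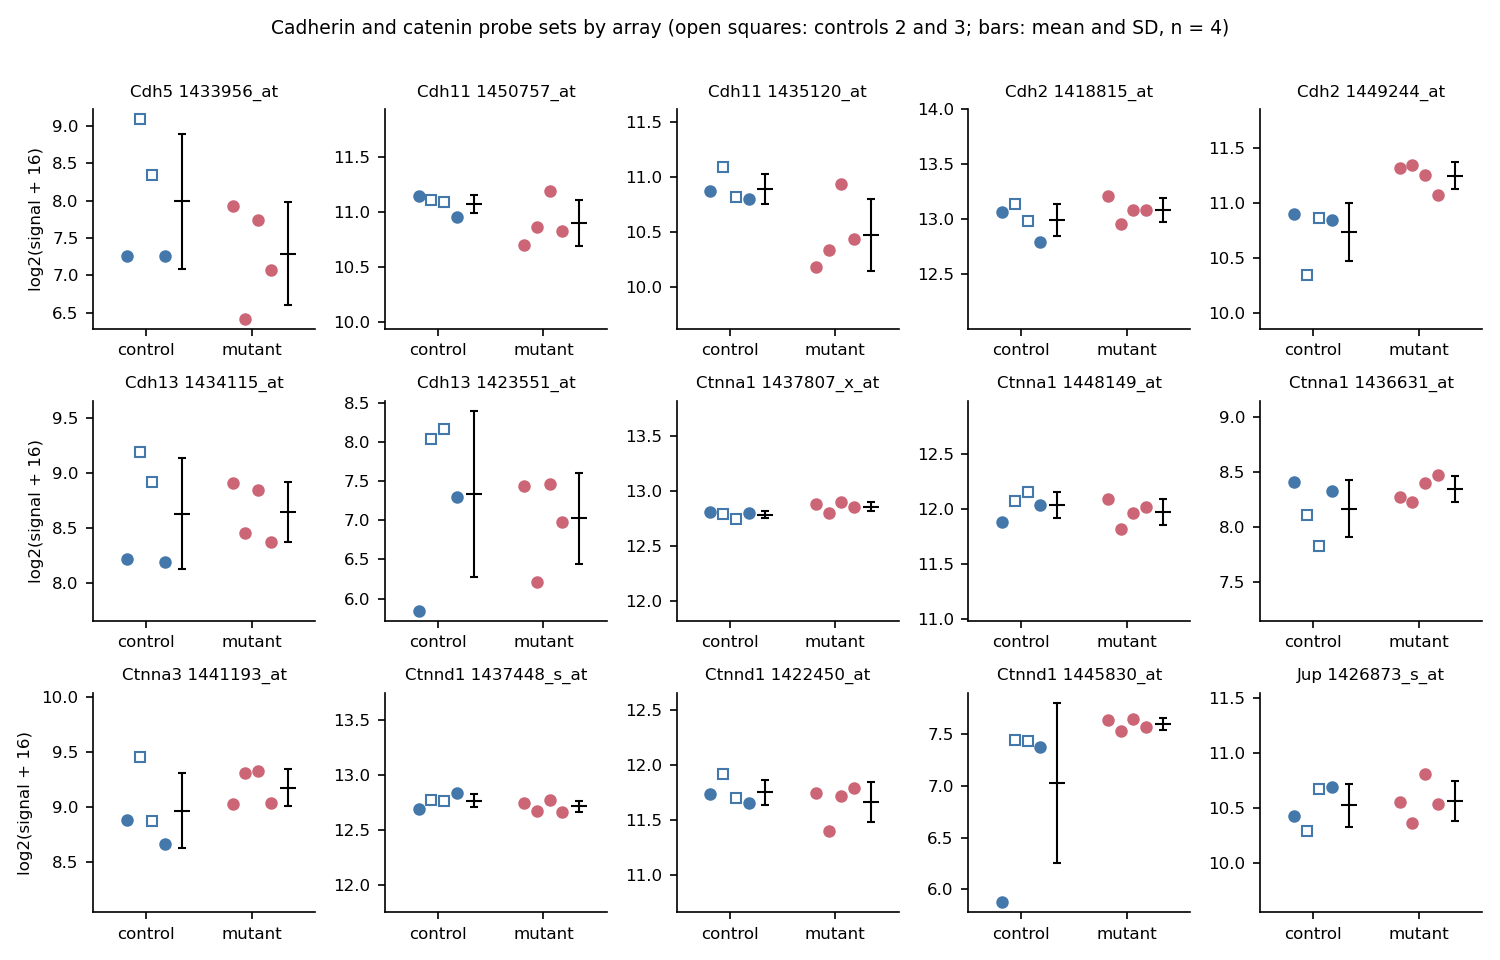
Normalized log2(signal + 16) of the 15 tested probe sets (vertical axes, one range per panel) on each control and mutant array, with the group mean and SD (n = 4) beside the points and controls 2 and 3 as open squares. Only the Cdh2 probe set 1449244_at and the Ctnnd1 probe set 1445830_at have groups that do not overlap, and on 1445830_at control 1 lies apart at 5.87.

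Among the cadherins, the N-cadherin gene Cdh2 had a positive change on both of its probe sets, though neither passed the threshold. Its brighter probe set (1418815_at) stood at 13.06, 13.13, 12.98 and 12.79 across controls 1 to 4 and at 13.21, 12.95, 13.09 and 13.08 across mutants 1 to 4. The groups overlapped, with 12.99 ± 0.15 against 13.08 ± 0.11 (SD, n = 4 each), and the change was 0.11 (SE 0.07, 95% interval -0.03 to 0.25, limma adjusted p = 0.50), or 0.036 without control 4. The dimmer one (1449244_at) stood at 10.90, 10.34, 10.86 and 10.85 across the controls and at 11.32, 11.35, 11.25 and 11.07 across the mutants. Here every mutant lay above every control. Its change was 0.39 (SE 0.11, 95% interval 0.16 to 0.63), or 1.31-fold, with an unadjusted p of 0.00274 and a limma adjusted p of 0.240, and 1.13% of all tested probe sets had a smaller p. Control 2 was the lowest array, and without controls 2 and 3 the change was 0.39 (limma adjusted p = 0.504), so that the value was as large without the 2 controls of raised background. Both probe sets are annotated to the same transcript record, yet they varied differently over the arrays, with a Pearson r of 0.07 over 8 arrays and of 0.53 over the 6 without controls 2 and 3, where quantile normalization and array background are shared.

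Markers of heart muscle and of the epicardium were higher in the mutants as well. The summed normalized signal of the 6 cardiomyocyte markers ran from 46083 to 48706 in the controls and from 50739 to 52770 in the mutants, and that of the 6 epicardial markers from 4369 to 5538 and from 6238 to 9066. Both lists were without overlap between groups on this measure, all 6 cardiomyocyte markers were above background on every array, and of the epicardial ones Aldh1a2 was not above background on any control. Taken singly, 1 of 6 tested cardiomyocyte markers and 1 of 5 tested epicardial ones had groups that did not overlap. Their part in the Cdh2 values was not tested. In whole canals, a larger share of cells of a type and more RNA per cell cannot be told apart, for Cdh2 as for the genes below.

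Cadherin 11 was below every control in 3 of the 4 mutant pools on both probe sets, and its changes did not pass the threshold. Its brighter probe set (1450757_at) stood at 11.15, 11.11, 11.09 and 10.95 across controls 1 to 4 and at 10.70, 10.87, 11.19 and 10.83 across mutants 1 to 4. Mutants 1, 2 and 4 lay below every control, while mutant 3 was the highest of all 8 arrays, and the change was -0.13 (SE 0.13, 95% interval -0.40 to 0.14, limma adjusted p = 0.694). The other probe set (1435120_at) gave a like picture, with 10.87, 11.09, 10.82 and 10.80 in the controls and 10.18, 10.33, 10.93 and 10.43 in the mutants. Again mutant 3 stood inside the control range and the other 3 mutants below it. The change was -0.30 (SE 0.17, 95% interval -0.66 to 0.07, limma adjusted p = 0.481). Mutant 3 decided its size: without that pool the change was -0.53, with an unadjusted p of 0.000435 and a limma adjusted p of 0.113. Mutant 3 also had the highest array weight, 2.80. Without array weights the change over all 8 arrays was -0.42, with an unadjusted p of 0.0151 and a limma adjusted p of 0.278. The 2 probe sets ran together over the arrays, with r = 0.92 over 8 arrays and 0.94 without controls 2 and 3. With each array centred on its own median, their changes were 0.30 and 0.11 while the median of all tested probe sets was 0.20, so that relative to it the brighter lay at 0.10 and the dimmer at -0.09.

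Cushion mesenchyme markers were also lower in mutants 1, 2 and 4 than in mutant 3. The mean log2 level of the 6 markers (Sox9, Twist1, Postn, Prrx1, Msx1 and Vcan) was 10.81, 10.60, 10.58 and 10.96 in controls 1 to 4 and 10.03, 10.45, 10.64 and 9.99 in mutants 1 to 4. Mutants 1, 2 and 4 lay below every control and mutant 3 among the controls, the same pools as for Cdh11. Pearson r between this mean and the brighter Cdh11 probe set was 0.72 over 8 arrays (Spearman 0.71) and 0.73 over 6 without controls 2 and 3, one of 45 correlations computed and given as a description over arrays that share their normalization. The summed signal of the markers did not overlap, at 23409 to 24725 in the controls and 16570 to 20747 in the mutants. A summed signal is weighted to the brightest genes. Taken singly, 5 of the 6 markers had negative changes and 1 a positive one, and 3 had groups that did not overlap. Their part in the Cdh11 values was not tested.

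**Figure D2:**
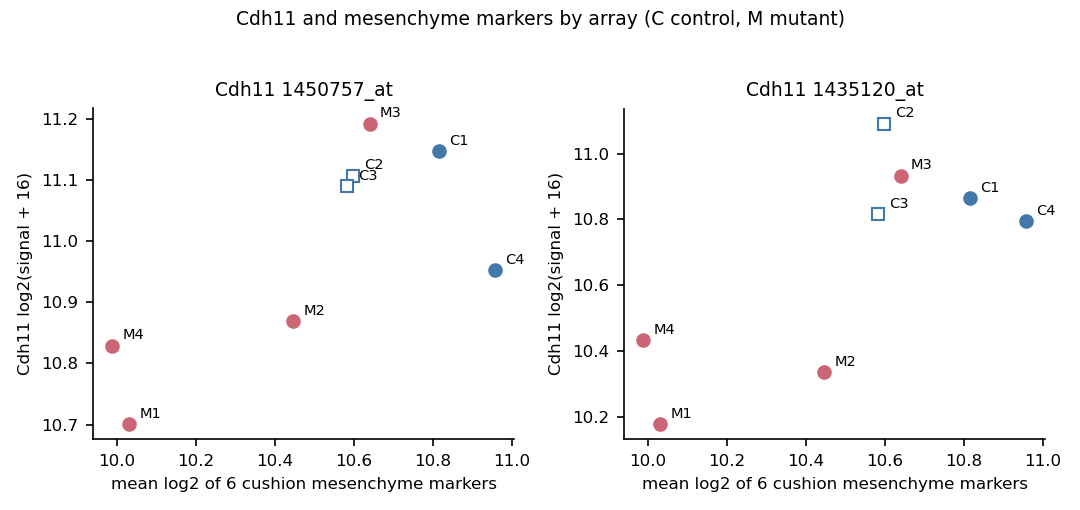
Log2(signal + 16) of the 2 Cdh11 probe sets (vertical axes) against the mean log2 level of 6 cushion mesenchyme markers (horizontal axes) on each array, C for control and M for mutant, with controls 2 and 3 as open squares. Mutants 1, 2 and 4 lie below every control on both axes, and mutant 3 lies among the controls on the marker axis and on 1435120_at and above them on 1450757_at.

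VE-cadherin was dim and varied widely within both groups, so its change had a wide interval. Its brighter probe set (1433956_at) was above background on all 8 arrays and stood at 7.26, 9.10, 8.35 and 7.26 across controls 1 to 4 and at 7.93, 6.42, 7.75 and 7.07 across mutants 1 to 4. The high values were those of the 2 controls with a raised background, where the deposited signals of 646 and 455 stood at 2.04 and 1.69 times the threshold. On the mutants that ratio was 3.22, 1.03, 7.25 and 2.15. The change was -0.19 (SE 0.39, 95% interval -1.01 to 0.63, limma adjusted p = 0.867), and without controls 2 and 3 it was 0.06. Leaving out control 2 gave 0.04 and control 3 gave 0.02, while leaving out control 1 gave -0.98 and control 4 gave -0.91. Its interval ran from 0.497-fold to 1.55-fold. The second probe set (1422047_at) was above background on 0 control and 2 mutant arrays, and no change is given for it. Other endothelial markers had positive changes where tested, except for Tek, and 0 of the positive ones passed the threshold. Of 6 tested, 5 had positive changes and 1 a negative one, Tek, the gene whose promoter drives the Cre, which fell by 0.72 (limma adjusted p = 0.000172). The summed normalized signal of the 6 markers other than Tek was 1741 to 2057 in the controls and 2383 to 2888 in the mutants, without overlap. On the deposited signals, the sums without Tek did overlap. The summed normalized signal of all 7 was 6963 to 8228 in the controls and 6061 to 6444 in the mutants. Their part in the Cdh5 values was not tested.

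E-cadherin was near or below background. Its only probe set (1448261_at) had deposited signals of 95, 63.7, 99.8 and 88.0 across controls 1 to 4 and of 73.2, 78.4, 57.8 and 14.2 across mutants 1 to 4. It was above background on 1 control and 3 mutant arrays and was not tested. Of 11 markers of foregut and liver epithelium, tissue that lies beside the heart and carries E-cadherin, Krt8 was above background on every array, the other 10 on some arrays only, and Epcam on 1 control and 1 mutant array. Control 4 and mutant 1 stood apart on this list, with a summed normalized signal of 2628 and 3746 against 1376 to 1593 on the other arrays. Control 4 was also the one control with Cdh1 above background, at 1.72 times the threshold. On mutants 1 to 4 that ratio was 1.12, 1.61, 2.71 and 0.41. It was thus highest on mutant 3, whose marker sum was 1593, and lower on mutant 1, whose marker sum was 3746. The part of these markers in the Cdh1 values was not tested.

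T-cadherin, a cadherin of vessels and heart muscle, had 4 probe sets. The brightest (1434115_at) stood at 8.22, 9.19, 8.92 and 8.19 across controls 1 to 4 and at 8.91, 8.46, 8.84 and 8.37 across mutants 1 to 4. As with Cdh5, controls 2 and 3 were the 2 highest arrays. The change was 0.25 (SE 0.24, 95% interval -0.25 to 0.76, limma adjusted p = 0.678) and 0.51 without controls 2 and 3, with -0.20 without control 1 and -0.18 without control 4, so that its direction depended on which controls were kept. The next (1423551_at), above background on 3 arrays of each group, had a change of 0.36 (SE 0.45, limma adjusted p = 0.768). Its direction also depended on them, at -0.82 without control 1 and -0.38 without control 4. The remaining 2 were dim: 1431824_at was not above background on any array, and 1454015_a_at was above it on mutants 3 and 4 only.

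**Figure D3:**
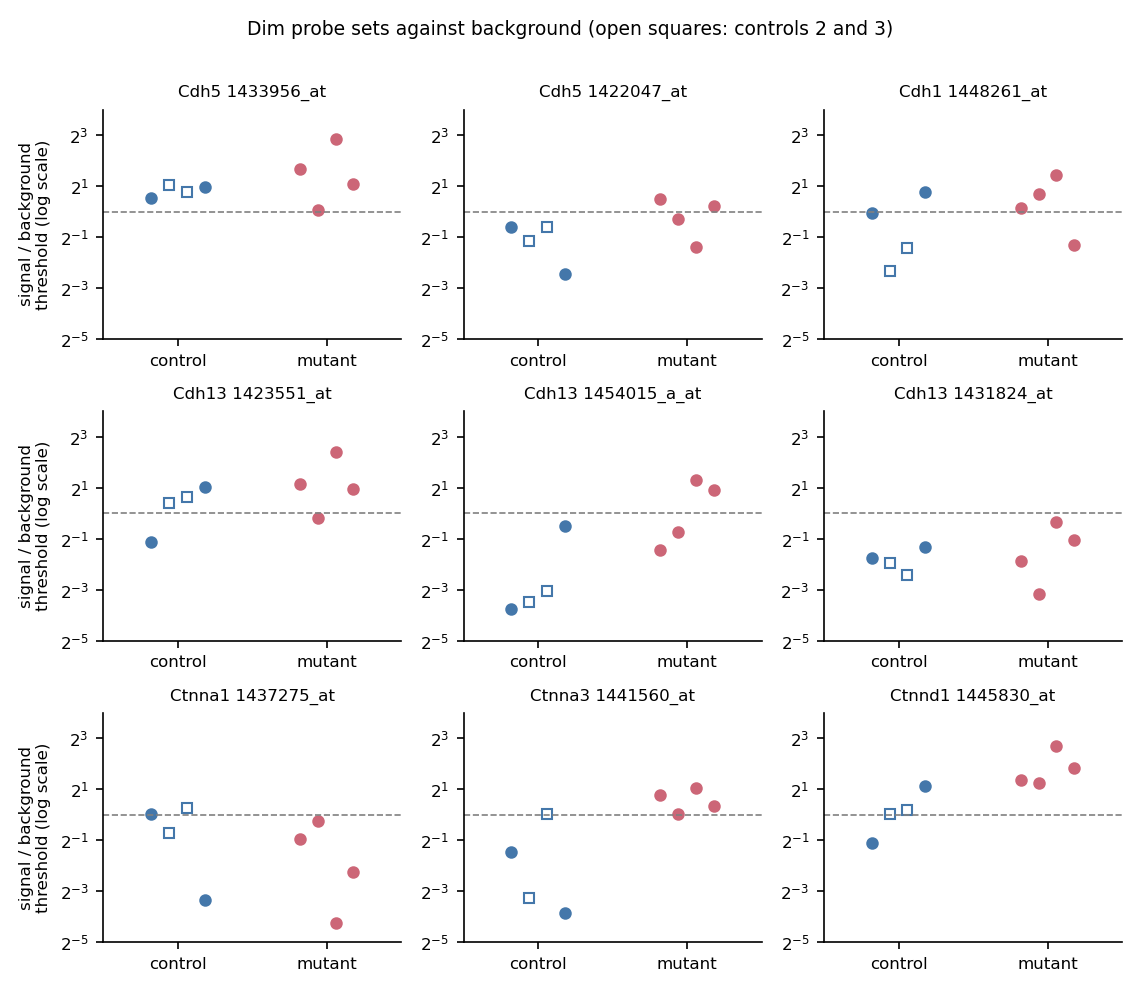
Deposited signal divided by the background threshold of the same array (vertical axes, log scale, dashed line at 1) for the 9 member probe sets that were dim on some arrays or belong to Cdh5, by group, with controls 2 and 3 as open squares. The brighter Cdh5 probe set (1433956_at) lies above the line on every array, from 1.03 to 7.25, while Cdh1 1448261_at and Cdh5 1422047_at lie on both sides of it.

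The common catenins Ctnna1 and Ctnnd1 were bright on their brightest probe sets, where changes after quantile normalization were close to 0 with narrow intervals. This did not hold for their dimmer probe sets. Alpha-catenin Ctnna1, on its brightest probe set (1437807_x_at), stood at 12.81, 12.79, 12.74 and 12.80 across controls 1 to 4 and at 12.88, 12.80, 12.90 and 12.85 across mutants 1 to 4. Of the mutants only mutant 2 lay within the control range, and the change was 0.07 (SE 0.05, limma adjusted p = 0.594), with an interval from 0.971-fold to 1.14-fold. A probe set of this type (_x_at) can bind other transcripts. The next (1448149_at) had a change of 0.01 (SE 0.08, 95% interval -0.16 to 0.18) and the third (1436631_at) one of 0.10 (SE 0.22, 95% interval -0.37 to 0.58). The fourth (1437275_at), above background on 2 control and 0 mutant arrays, was not tested.

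The heart muscle alpha-catenin Ctnna3 stood at 8.88, 9.46, 8.87 and 8.66 across controls 1 to 4 and at 9.03, 9.31, 9.33 and 9.04 across mutants 1 to 4 on its brighter probe set (1441193_at). Every mutant lay above 3 of the 4 controls, and control 2 was the highest of all arrays. The change was 0.31 (SE 0.19, 95% interval -0.09 to 0.70, limma adjusted p = 0.50), 0.46 without controls 2 and 3 (limma adjusted p = 0.650), and 0.11 without control 4 and 0.17 without control 1. Its r with the mean of the cardiomyocyte markers was 0.62 over 8 arrays and 0.78 over the 6 without controls 2 and 3. This is one of the 45 correlations computed, given as a description only. Members did not always run with markers of their own cell type. Cdh5 had an r of -0.70 with the endothelial mean (0.12 over 6), and Ctnna1 one of 0.77 with the epicardial mean (0.73 over 6). The other probe set (1441560_at) was above background on 1 control and 4 mutant arrays and was not tested.

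The p120 catenin gene Ctnnd1 stood at 12.69, 12.78, 12.77 and 12.83 across controls 1 to 4 and at 12.74, 12.67, 12.77 and 12.67 across mutants 1 to 4 on its brightest probe set (1437448_s_at). The groups overlapped, with a change of -0.03 (SE 0.06, limma adjusted p = 0.857) and an interval from 0.897-fold to 1.07-fold. The next (1422450_at) had a change of -0.02 (SE 0.09, 95% interval -0.21 to 0.18). The third (1445830_at) differed from both. It stood at 5.87, 7.45, 7.43 and 7.38 across the controls and at 7.64, 7.53, 7.64 and 7.57 across the mutants. The mutants lay above every control, by little except for control 1, which was not above background. Its change was 0.93 (SE 0.37, unadjusted p = 0.0227, limma adjusted p = 0.34), but 0.19 without control 1 and 0.55 without control 4.

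Plakoglobin (Jup), the catenin shared by adherens junctions and desmosomes, had 1 probe set (1426873_s_at). Its log2 values were 10.43, 10.30, 10.67 and 10.69 across controls 1 to 4 and 10.56, 10.36, 10.81 and 10.54 across mutants 1 to 4. Each group held high and low pools, and the change was 0.09 (SE 0.13, 95% interval -0.18 to 0.37, limma adjusted p = 0.789) and 0.0022 without controls 2 and 3.

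**Figure D4:**
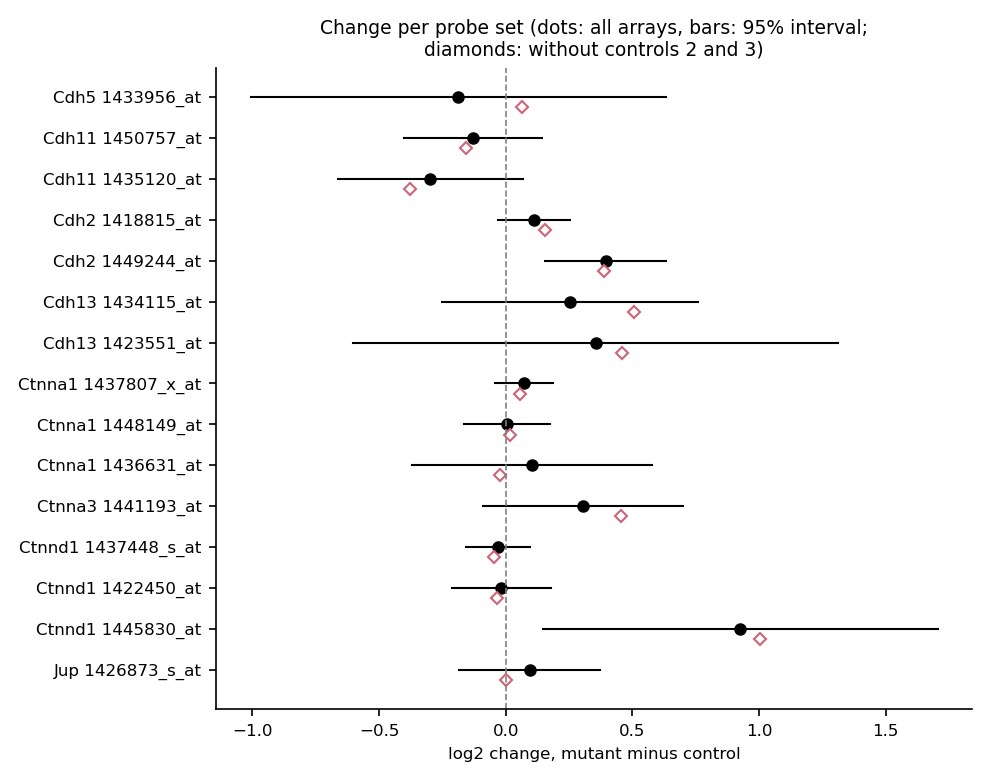
Log2 change, mutant minus control (horizontal axis), of each tested probe set with its 95% interval over all arrays (dots and bars), and the change without controls 2 and 3 (diamonds). Intervals are narrow for the bright catenin probe sets, such as -0.16 to 0.10 for Ctnnd1 1437448_s_at, and wide for Cdh5 and Cdh13, and 2 of 15 leave out 0.

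Without controls 2 and 3, in a fit with no array weights, 0 of the 15 passed, as against 0.0074% of all probe sets, and 13 kept their sign. At an unadjusted p under 0.05 there were 3 (Cdh2 1449244_at, Ctnna3 1441193_at and Ctnnd1 1445830_at), against 7.43% of all. Cdh2 was positive on both probe sets under each of the 19 alternative settings, but on the brighter one by as little as 0.036, without control 4. The bright probe sets shifted with the scaling: with each array centred on its own median, where the median over everything tested was 0.20, the brightest one stood at a change of 0.57 for Ctnna1, 0.46 for Ctnnd1, 0.52 for Jup and 0.58 for Cdh2, and 0 of the 15 passed. The direction for Ctnnd1 turned there and on the authors' scaling (0.082).

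Gata4 binds a GATA core flanked by A or T before it and A or G after it, and the windows around the starts of the member genes are shown for that reason. RefSeq windows (GRCm38.p6) of 300 bases, 250 before the start and 50 after it, were matched for Ctnna3, Ctnnd1 and Jup. Its 4 forms were searched on both strands: AGATAA or AGATAG, and the same with T first, TGATAA or TGATAG. Of 6 windows, 2 held one, against 29.8% of all 32851 windows. The hexamer is in capitals, 1 in each window shown. It is on the strand opposite to the gene and 240 bases before the start in the Ctnna3 window, one of 3 for that gene (chr10:63820805-63821104, plus strand), and on the strand of the gene and 74 bases before the start for Jup (chr11:100397741-100398040, minus strand). A match is a description of the letters, not a binding site.
Ctnna3: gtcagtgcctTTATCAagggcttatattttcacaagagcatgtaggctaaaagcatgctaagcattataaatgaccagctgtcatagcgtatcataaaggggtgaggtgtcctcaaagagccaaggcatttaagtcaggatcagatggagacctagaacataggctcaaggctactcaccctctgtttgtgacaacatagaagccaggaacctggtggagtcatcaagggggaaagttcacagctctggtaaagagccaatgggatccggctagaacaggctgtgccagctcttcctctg
Jup: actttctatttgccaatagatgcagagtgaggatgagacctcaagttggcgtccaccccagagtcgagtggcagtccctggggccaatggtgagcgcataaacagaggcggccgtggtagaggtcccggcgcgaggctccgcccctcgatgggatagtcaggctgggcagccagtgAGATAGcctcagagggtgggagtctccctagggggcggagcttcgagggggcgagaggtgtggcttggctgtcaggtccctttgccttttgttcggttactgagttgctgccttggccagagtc

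Partners of the members were taken from 7 junction lists, each gene on its brightest probe set. None of the list genes passed the threshold in either direction. Of all tested probe sets, 53.8% had positive changes. Of 17 tested adherens junction partners, 10 had positive and 7 negative changes, with a median of 0.04 against 0.03 for all probe sets, 4 had an unadjusted p under 0.05 (12.6% of all probe sets did) and 4 had groups that did not overlap (7.63% of all). Beta-catenin (Ctnnb1), the main tail-binding partner, had means of 13.88 ± 0.03 in the controls and 13.83 ± 0.01 in the mutants (SD, n = 4 each) on its brightest probe set, with a change of -0.04 (SE 0.04). A dimmer one (1450008_a_at) gave 10.98, 10.75, 11.04 and 10.91 across the controls against 10.69, 10.65, 10.61 and 10.53 across the mutants. Every mutant lay below every control there, with a change of -0.34 (SE 0.10, unadjusted p = 0.00416, limma adjusted p = 0.246), while the remaining probe set had a change of 0.63 and was above background on 2 of the control arrays. The smallest p values in the list were those of the actin-binding Lima1 (-0.56), the receptor phosphatase Ptprb, which acts on VE-cadherin (-0.51), and the adhesion receptor Nectin2 (0.57). Their limma adjusted p values were 0.240, 0.245 and 0.338. All 4 tested Lima1 probe sets had negative changes, while the other tested probe sets of Ptprb had changes in both directions.

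Desmosomes and intercalated discs join heart muscle cells. Of 9 tested genes, 8 had positive and 1 negative changes (53.8% of all probe sets had positive ones), with a median of 0.10 (0.30 without controls 2 and 3). Of the 9, 1 had an unadjusted p under 0.05 (12.6% of all probe sets did). This was the desmosomal cadherin Dsc2 (0.32, SE 0.12, limma adjusted p = 0.316), followed by desmoplakin Dsp (0.09) and the actin-binding Xirp1 (0.19). Cardiomyocyte markers were higher in the mutants too, as given above, and their part was not tested.

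Of 18 other cadherins listed, 16 had a probe set and 4 were tested. All 4 had negative changes, with a median of -0.49 (-0.31 without controls 2 and 3) and 0 with an unadjusted p under 0.05 in the limma fit. Over all probe sets, 53.8% had positive changes and 12.6% had such a p. The 4 were Cdh4 (-0.70), Cdh7 (-0.50), Cdh6 (-0.48) and Cdh10 (-0.33, named after its value was seen), and only Cdh7 was above background on all 8 arrays. Of 16 protocadherins and atypical cadherins, 5 had positive and 11 negative changes (median -0.20, or -0.086 without controls 2 and 3). The negative ones include Pcdh1 and Clstn3, with means of 7.86 and 7.54 in the controls and 5.49 and 6.07 in the mutants. Both passed the filter on dim probe sets only through their control values, so they could be counted only as lower. Celsr1, a cadherin of planar cell polarity, was above background on every array and had groups that did not overlap, with 9.29 ± 0.35 in the controls and 9.87 ± 0.12 in the mutants and a change of 0.41 (SE 0.17, limma adjusted p = 0.348). Clstn3 had a change of -1.17 (SE 0.44, limma adjusted p = 0.330) and was above background on 3 control and 2 mutant arrays. Pcdh1 was above background on 4 control arrays and 1 mutant array, and no change is given for it, though it is in the count and median above.

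Of 10 tested genes of tight and endothelial junctions, 3 had positive and 7 negative changes (median -0.22), while 53.8% of all probe sets had positive ones. The junctional adhesion molecule F11r had a change of -0.39 and Pecam1 one of 0.54 (limma adjusted p 0.386 and 0.489). The claudin Cldn7 (-1.15) was above background on 3 control and 2 mutant arrays. Its means were 7.52 in the controls and 6.04 in the mutants, so it passed the filter on dim probe sets only through its control values. Among 7 genes of cadherin shedding and turnover, 2 had positive and 5 negative changes (median -0.11), beside the same share of 53.8% positive over all probe sets. The protease Adam10, which cuts cadherins at the membrane, had a change of -0.09 (limma adjusted p = 0.440) with no overlap between groups. Its other tested probe sets had changes in both directions, at 0.21, -0.32 and 0.12. The proprotein convertase Furin had a change of -0.14 and the dynamin Dnm2 one of -0.35. The other tested probe sets of Dnm2 also had changes in both directions, at -0.39, 0.66, 0.13 and -0.34. Of 5 tested Snail, Twist and Zeb factors, repressors of E-cadherin or drivers of mesenchyme, all 5 had negative changes, while 53.8% of all probe sets had positive ones. The list median was -0.18, but 0.14 with each array centred on its own median. The factors with the smallest p were Twist1 (-1.33, limma adjusted p = 0.334), which is also one of the mesenchyme markers, Zeb1 (-0.10) and Zeb2 (-0.23). The other tested probe sets of Zeb1 and of Zeb2 had changes in both directions.

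**Figure D5:**
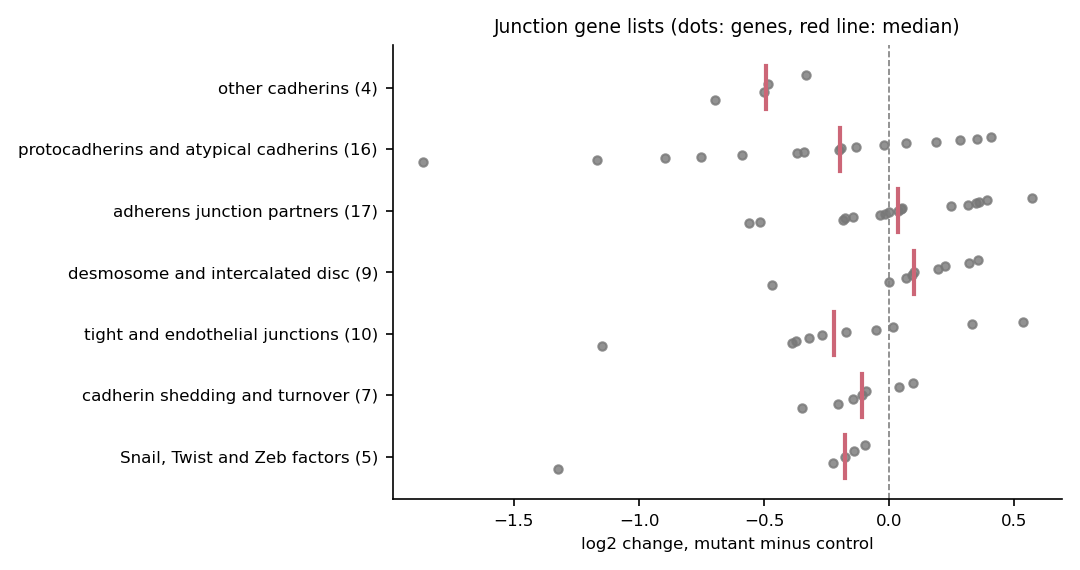
Log2 change, mutant minus control (horizontal axis), of each tested gene in the 7 junction lists (dots), with the number of genes in brackets and the list median as a line. Medians run from -0.49 for the other cadherins to 0.10 for desmosome and intercalated disc genes, and 0 genes passed the threshold. The dots include Pcdh1 and Dsc1, each above background on only 1 array of a group.

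For the 8 members whose brightest probe set was above background on all 8 arrays, the genes with the most similar pattern over the 8 arrays were taken from at least 12904 probe sets above background on every array. Correlations this high are common when the best of so many is taken over 8 points, and the arrays share their background and normalization, so they are given as a description only. For Cdh2 they were the glucose transporter Slc2a1 (r = 0.98) and the cytochrome oxidase subunit Cox6c (0.96). For Cdh11 they were Dpysl3 (0.95), which binds the cytoskeleton, and Hmgxb4 (0.92). Ctnna1 was closest to cytochrome c, Cycs (0.97), and to the cardiac splicing factor Rbm20 (0.96). The closest to Cdh5 were Rspry1 (0.97) and Nbeal1 (0.96), and to Cdh13 Trim44 (0.98) and Cdkl2 (0.95). Ctnna3 was closest to Brca2 and Lrrfip1 (0.94 each), Ctnnd1 to Ubr1 (0.93) and Tial1 (0.92), and Jup to Gpd1l and Rbm39 (0.96 each).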

How the data were processed

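Each of the 8 arrays is a pool of 10 canals, from which 50 ng of total RNA was amplified, per the labels. The deposited intensities are linear MAS5 probe set signals, per the submitters' processing notes, and the authors' scaling left a mean of 715 on every array. The design text says that 2 controls were excluded without saying which, so all 4 were kept. Arrays were quantile normalized because 2% trimmed means differed by 1.12 times, over a limit of 1.1. Array controls (64) and the dimmest 40% of the rest were left out. Dimness was judged on the mean over all 8 arrays, so a gene dim in 1 group could pass through its values in the other. Mutant and control were compared with limma 3.58.1 in R 4.3.3, two-sided, with array weights and eBayes with trend and robust set. A gene's brightest probe set has the highest mean signal. Where either group had fewer than 2 arrays above background, no change is printed in the text. Such genes, if tested, are still in the list counts and medians and in the figure of the junction lists.

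Genes named are all members, up to 3 per list with the smallest p, Ctnnb1, Gata4, the markers quoted, and the 2 most correlated genes per member above background throughout. The members and lists were chosen with earlier results of these data known. Gene names come from the platform annotation. Of 159 list entries, 151 had a probe set. The leukocyte and neural marker lists had 0 genes above background on all arrays, the erythroid list 3 and the canal muscle list 2. Alternatives were normalization, pseudocount, filter, weights, left-out arrays, a replicate block and an RNA integrity covariate. The fit was tested on simulated data with independent noise, without the raised background of controls 2 and 3, so that test does not cover the effect of such background. Replicates are separate pools, and their number limits the precision.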

Additional observations from a re-analysis of the deposited data

Results flagged for a closer look

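On the Cdh2 probe set 1449244_at, control 2 lay apart from the other controls, at a log2 value of 10.34 against 10.85 for the nearest, a gap of 0.907 of the group's whole range that is over Dixon's limit for 4 samples. Control 2 had a raised background and the lowest array weight, 0.302, and without it the change of this probe set was 0.34 against 0.39. On the Ctnnd1 probe set 1445830_at, control 1 lay apart at 5.87 against 7.38 for the nearest control, a gap of 0.957 of the range. Control 1 was the one array where this probe set was not above background, and without it the change was 0.19 against 0.93. These were 2 of 30 groups examined, those of the 15 tested probe sets, and chance flags about 1 in 20.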

How the results depend on the processing

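Of 283 changes of member probe sets under 19 alternative settings, 0 passed the threshold and 29 changed direction, on 10 of the 15 probe sets. Both Cdh2 probe sets, Ctnna1 1437807_x_at, Ctnna3 1441193_at and Ctnnd1 1445830_at kept their direction throughout, and Cdh2 1449244_at ranged from 0.34 to 0.86, with adjusted p from 0.0517 to 0.694, and Cdh2 1418815_at from 0.036 (without control 4) to 0.58 (median-centred), with 0.053 under the 3 prime to 5 prime covariate. The median change over everything tested was 0.03, and became 0.20 with arrays centred on their own median and -0.10 on the authors' scaling. With median-centred arrays the reversed changes were 0.11 (Cdh11 1435120_at), 0.30 (Cdh11 1450757_at), 0.45 (Ctnnd1 1422450_at), 0.46 (Ctnnd1 1437448_s_at) and -0.23 (Cdh13 1423551_at). On the authors' scaling they were 0.075 (Ctnnd1 1422450_at), 0.082 (Ctnnd1 1437448_s_at), -0.074 (Cdh13 1423551_at) and -0.15 (Ctnna1 1436631_at). Without array weights, Cdh13 1423551_at was at -0.31 and Ctnna1 1448149_at at -0.064, and with no filter the latter was at -0.022. Without controls 2 and 3, Cdh5 1433956_at was at 0.064 and Ctnna1 1436631_at at -0.024 with no weights, and Cdh5 at 0.16 and Ctnnd1 1422450_at at 0.016 with weights. With 1 array left out, ranges that crossed 0 were -0.075 to 0.025 (Ctnnd1 1422450_at), -0.82 to 0.84 (Cdh13 1423551_at), -0.20 to 0.40 (Cdh13 1434115_at), -0.019 to 0.14 (Jup), -0.98 to 0.044 (Cdh5) and -0.12 to 0.060 (Ctnna1 1448149_at). The causes were not tested.

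Over the whole table, 7 probe sets were higher and 5 lower, and the counts were 41 and 22 on the authors' scaling, 68 higher with median-centred arrays, 22 and 12 with a pseudocount of 64, 14 and 12 with no filter, 10 lower without array weights, 1 and 1 without controls 2 and 3 (with or without weights), and 2 and 2 with the 3 prime to 5 prime ratio as a covariate. With 1 array left out they ran from 3 to 1417 higher and 2 to 371 lower, the highest being 1417 higher when control 1 was dropped (263 lower) and 371 lower when control 4 was (1291 higher). Same-numbered arrays did not deviate together (correlations -0.11, 0.01, -0.13 and 0.17), so numbers were not taken as pairs. With the replicate number as a block they were 26 and 34, and 0 member probe sets passed; the change of Cdh2 1449244_at was 0.41 and that of Cdh11 1435120_at -0.44. With median-centred arrays the list medians were -0.95 for the other cadherins, 0.30 for adherens junction partners, 0.43 for desmosome and intercalated disc, 0.32 for shedding and turnover and 0.14 for the Snail, Twist and Zeb factors (-0.18 after quantile normalization). Without controls 2 and 3 they were -0.31 for the other cadherins, -0.086 for the protocadherins, 0.30 for desmosome and intercalated disc and -0.28 for the Snail, Twist and Zeb factors. Dim probe sets were limited by background, and for Cdh1 by the absence of a second probe set.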
